A study of Mus musculus with 12 samples.

Results

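Gata1, Klf1, Tal1, Zfpm1, Nfe2, Gfi1b, Lmo2, Ldb1, Runx1 and Mef2c, transcription factors and cofactors of the red cell and platelet lineages, were followed in bone marrow with and without E4bp4. They were taken by gene symbol, as the 10 named genes among 17807 genes tested, each through the 1 transcript cluster (the probe group that reports a transcript) annotated to it alone. The study hybridised total RNA of lineage-depleted bone marrow to GeneChip Mouse Gene 1.0 ST arrays, 1 array for each of 6 E4bp4-/- and 6 E4bp4+/+ mice. E4bp4, also called Nfil3, is a basic leucine zipper transcription factor, and the title of the series gives its candidate regulated genes in marrow as the question. Cells from crushed hindlegs that carried the red cell antigen Ter119, the myeloid antigens GR1 and CD11b, the B cell antigen B220, CD2 or NK1.1 had been removed with magnets from both genotypes, so Ter119-positive red cell precursors were depleted in all 12 samples. Strain, age and sex of the mice, and the part of the gene that was deleted, are not given in the sources used here. All levels below are log2 values as the authors deposited them, all differences are E4bp4-/- minus E4bp4+/+, and each group mean is given with its SD over 6 mice.

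Red cells and megakaryocytes, the cells that shed platelets, arise from a shared progenitor. Gata1 and its cofactor Zfpm1 (FOG-1) act in both lineages. Gata1 also works in a DNA-bound complex in which Tal1 recognises an E-box and Lmo2 and Ldb1 form the bridge. Klf1 drives the red cell programme through CACCC elements, Gfi1b is a repressor needed in both lineages, Nfe2 acts late in megakaryocytes on platelet genes, Runx1 is needed for megakaryocyte maturation and for blood stem cells to form, and Mef2c works in megakaryocytes and in lymphoid progenitors.

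The Nfil3 transcript was read as a check of the genotype labels. Its level was 6.34 to 6.92 in E4bp4-/- and 6.94 to 7.66 in E4bp4+/+, with no overlap. The difference was -0.68 ± 0.13 (SE), with a limma adjusted p of 0.14. Its exact permutation p was 0.00216, the smallest that 6 against 6 arrays allow. Knockout replicate 2, at 6.92, lay beside wild type replicate 5, at 6.94, so the check was weak for that array. The other knockouts were at 6.34 to 6.57. The 20th percentiles of the arrays, a guide to background, lay between 4.93 and 4.99. Knockout replicate 1 stood apart. Xist was at 6.08 there and at 12.1 to 12.65 on the 11 others, and the Y-linked Eif2s3y was at 7.37 there and at 4.13 or less on the others. Uty and Kdm5d, also Y-linked, were at 7.70 and 6.98 there and at most 4.66 and 4.80 elsewhere. This is the pattern of a male mouse on that array and of females on the 11 others, though the labels do not give sex. The mean level of 16 neutrophil markers was 9.85 there against 7.80 to 8.65 elsewhere, and that of 12 monocyte and macrophage markers was 8.73 against 7.21 to 7.76. The differences of the 10 factors and the medians of the gene lists are therefore given with and without that array. Depletion left the progenitor marker Kit at 10.93 to 11.38 across the 12 arrays, and left B lineage markers at a mean of 6.15 to 6.56, of which Ms4a1 (4.79 to 5.09) was next to the 20th percentile and Cd79b (8.88 to 9.93) well above it. Red cell and megakaryocyte genes were well above the 20th percentile: Epor, the erythropoietin receptor, was at 10.03 to 10.94, and Itga2b, the megakaryocyte integrin CD41, at 9.07 to 10.09.

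The promoter windows of Gata1, Klf1, Gfi1b and Tal1 are shown because these factors are textbook regulators of one another. The transcripts of Gata1, Klf1 and Gfi1b varied together between mice, and that of Tal1 followed them less closely. Each run is the 250 bases before a transcription start in the RefSeq annotation of GRCm38.p6, written 5′ to 3′ along the gene. Capitals mark matches on either strand to a GATA core, to CCNCNCCC or to the Runx core TGTGGT. The GATA core was AGATAA, also with T as its first letter, G as its last, or both. CCNCNCCC is a form of the CACCC box that also takes in GC-rich boxes, and its matches are called CACCC-type here. It needs CC at its start. Plain CACCC runs without that CC, as in the Klf1 and Gfi1b windows, were not counted and stay in lower case. The windows lie at chrX:7967911-7968160 on the minus strand for Gata1, chr8:84901732-84901981 on the plus strand for Klf1, chr2:28621983-28622232 on the minus strand for Gfi1b and chr4:115056176-115056425 on the plus strand for the more upstream of the Tal1 starts.
Gata1: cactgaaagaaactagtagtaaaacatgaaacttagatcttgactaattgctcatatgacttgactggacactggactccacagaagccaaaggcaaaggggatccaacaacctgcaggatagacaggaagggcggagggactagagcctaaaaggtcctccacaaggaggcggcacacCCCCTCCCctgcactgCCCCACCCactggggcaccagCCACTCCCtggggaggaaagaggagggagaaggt
Klf1: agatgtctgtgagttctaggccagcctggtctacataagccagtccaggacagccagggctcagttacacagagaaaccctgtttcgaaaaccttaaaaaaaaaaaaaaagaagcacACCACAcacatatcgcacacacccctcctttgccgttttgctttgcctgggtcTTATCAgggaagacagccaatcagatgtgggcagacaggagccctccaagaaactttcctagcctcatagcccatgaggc
Gfi1b: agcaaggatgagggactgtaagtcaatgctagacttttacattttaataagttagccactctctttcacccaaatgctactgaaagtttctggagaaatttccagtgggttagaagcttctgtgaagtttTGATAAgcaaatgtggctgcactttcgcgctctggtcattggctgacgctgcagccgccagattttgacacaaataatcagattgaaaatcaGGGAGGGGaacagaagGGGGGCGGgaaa
Tal1: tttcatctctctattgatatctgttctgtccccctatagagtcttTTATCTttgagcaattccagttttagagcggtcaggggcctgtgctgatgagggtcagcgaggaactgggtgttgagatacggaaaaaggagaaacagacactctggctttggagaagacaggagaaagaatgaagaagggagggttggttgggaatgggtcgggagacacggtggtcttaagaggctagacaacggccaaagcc
The Gata1 window held 3 CACCC-type matches, which began 71, 55 and 34 bases before the start, and no GATA core. The Klf1 window held 1 GATA core on the opposite strand, 80 bases before the start, and the only Runx core found in the windows of these genes, at 133 bases. Gfi1b had 1 GATA core at 120 bases and 2 CACCC-type matches on the opposite strand at 28 and 12 bases. The Tal1 window shown had a GATA core on the opposite strand at 205 bases. The other Tal1 window, not shown, had no GATA core, and CACCC-type matches on the opposite strand at 248, 201, 199 and 194 bases.

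The RefSeq promoter table held 14 windows for 8 of the 10 genes, all but Nfe2 and Lmo2, which are not analysed here for sequence. A GATA core stood in 4 of the 14 windows, 1 each of Gfi1b, Klf1, Ldb1 and Tal1, and in 26.5% of all 32851 windows of that length. CACCC-type matches, some of which overlapped one another, stood in 10 of the 14 windows, from 7 genes, and in 45.9% of all windows. Klf1 had no match to CCNCNCCC, though its window holds a plain CACCC run that this form leaves out. An E-box, CANNTG, stood in 7 of the 14 windows, from 6 genes, and in 66.2% of all windows. The Nfe2 site TGAGTCA and the E4bp4 site TTANGTAA were found in 0 of the 14 windows and in 4.46% and 2.06% of all windows.

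No transcript of the 10 genes differed between the genotypes past the adjusted threshold of 0.05 in limma, and 0.0% of all 29541 transcript clusters did. The genotypes overlapped for all 10, where 1.27% of all transcript clusters had genotypes that did not overlap. Lower means in E4bp4-/- were found for 7 of them (Gata1, Klf1, Tal1, Zfpm1, Gfi1b, Lmo2 and Ldb1) and higher means for 3 (Nfe2, Runx1 and Mef2c). Of all genes, 41.2% were lower and 58.8% higher. The median difference of the 10 was -0.043, against 0.020 over all genes. Mef2c alone had an unadjusted p under 0.05, a bound that 14.9% of all transcript clusters passed. With each array centred on its median, Lmo2, at -0.088, passed that bound in its place, and Mef2c, at 0.12, did not. In RNA of mixed cells such as this, fewer cells of a type and less RNA per cell cannot be told apart.

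**Figure D1:**
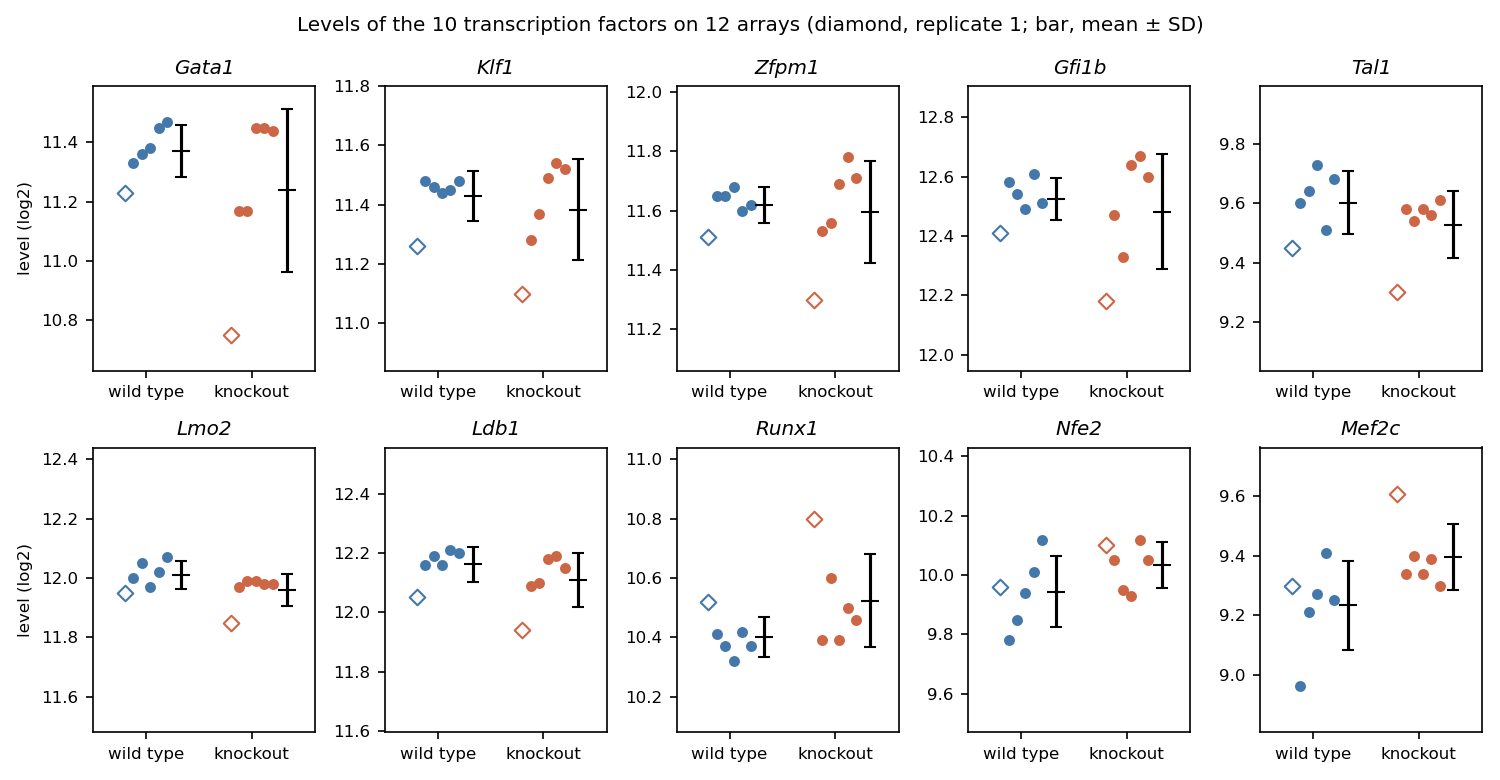
Log2 level of each of the 10 factors on 12 arrays, with wild type (E4bp4+/+) at left and knockout (E4bp4-/-) at right of each panel; diamonds are the arrays numbered 1, and bars give mean ± SD of 6 mice. The knockout diamond is the lowest of the 12 arrays for 7 factors and the highest for Runx1 and Mef2c.

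Gata1, the zinc finger factor at the centre of both lineages (transcript cluster 10603417, chromosome X), had levels of 10.75 at the lowest, 11.31 at the median and 11.45 at the highest in E4bp4-/-, and of 11.23, 11.37 and 11.47 in E4bp4+/+. Knockout replicates 1, 2 and 3, at 10.75, 11.17 and 11.17, were below every wild type array, and the other 3 knockouts lay at 11.44 to 11.45, near the top of the wild type range. The means were 11.24 ± 0.27 and 11.37 ± 0.089, and the difference was -0.13 ± 0.11 (SE; 95% interval from -0.37 to 0.11; limma adjusted p = 0.591). Without knockout replicate 1 it was -0.033, with an interval from -0.19 to 0.12, and the knockout SD was 0.15. Gata1 was the most spread of the 10 in knockout mice.

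Tal1, the basic helix-loop-helix partner that binds E-boxes (10507131, chromosome 4), was at 9.30, 9.57 and 9.61 (lowest, median, highest) in E4bp4-/- and at 9.45, 9.62 and 9.73 in E4bp4+/+. Knockout replicate 1 was again the lowest of the 12, and the other 5 knockouts fell within 9.54 to 9.61, inside the wild type range. The difference was -0.075 ± 0.063 (interval from -0.21 to 0.062; limma adjusted p = 0.595) and was -0.029 without that array.

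Klf1, the red cell Krüppel-like factor (10573457, chromosome 8), was at 11.10, 11.43 and 11.54 in E4bp4-/- and at 11.26, 11.46 and 11.48 in E4bp4+/+. The knockouts lay on both sides: 3 were above every wild type array and 1 was below. The difference was -0.046 ± 0.075 (interval from -0.21 to 0.12; limma adjusted p = 0.80), and it turned to 0.011 without knockout replicate 1.

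Lmo2 and Ldb1, which bind no DNA themselves and hold Tal1 and Gata1 together in the complex, had narrow ranges. Lmo2 (10474201, chromosome 2) was at 11.85, 11.98 and 11.99 in E4bp4-/- and at 11.95, 12.01 and 12.07 in E4bp4+/+. Apart from knockout replicate 1, the knockouts lay at 11.97 to 11.99, with an SD of 0.0070. The difference was -0.048 ± 0.038 (interval from -0.13 to 0.033; limma adjusted p = 0.565), the smallest SE of the 10, and -0.026 without that array. Ldb1 (10468159, chromosome 19) was at 11.94, 12.12 and 12.19 in E4bp4-/- and at 12.05, 12.17 and 12.21 in E4bp4+/+, with the lowest value of each genotype in the array numbered 1. Its difference was -0.055 ± 0.048 (interval from -0.16 to 0.050; limma adjusted p = 0.615) and -0.020 without knockout replicate 1.

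Zfpm1, the cofactor that Gata1 needs in both lineages (10576090, chromosome 8), was at 11.30, 11.62 and 11.78 in E4bp4-/- and at 11.51, 11.63 and 11.68 in E4bp4+/+. As for Klf1, 3 knockouts were above every wild type array and 1 was below. The difference was -0.023 ± 0.072 (interval from -0.18 to 0.13; limma adjusted p = 0.906), and it was positive without knockout replicate 1, at 0.035, and after quantile normalisation, at 0.0053.

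Gfi1b, the repressor that recruits Kdm1a and Rcor1 (10481304, chromosome 2), was at 12.18, 12.53 and 12.67 in E4bp4-/- and at 12.41, 12.52 and 12.61 in E4bp4+/+. Its knockout range took in the wild type range on both sides, with 2 knockouts above and 2 below it. The difference was -0.040 ± 0.081 (interval from -0.21 to 0.14; limma adjusted p = 0.848) and 0.020 without knockout replicate 1.

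Runx1, the core-binding factor needed for megakaryocyte maturation (10441003, chromosome 16), was at 10.39, 10.48 and 10.80 in E4bp4-/- and at 10.32, 10.39 and 10.52 in E4bp4+/+. Knockout replicates 1 and 3, at 10.80 and 10.60, were above every wild type array and the other 4 were within its range. The difference was 0.12 ± 0.068 (interval from -0.028 to 0.27; limma adjusted p = 0.429) and 0.064 without knockout replicate 1.

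Nfe2, the platelet gene activator (10433096, chromosome 15), was at 9.93, 10.05 and 10.12 in E4bp4-/- and at 9.78, 9.95 and 10.12 in E4bp4+/+. The highest arrays of both genotypes were level, and all 6 knockouts were above the 2 lowest wild type arrays. The difference was 0.091 ± 0.059 (interval from -0.038 to 0.22; limma adjusted p = 0.488). Knockout replicate 1 did not stand apart for Nfe2, and without it the difference was 0.077.

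Mef2c, a MADS-box factor of megakaryocytes and lymphoid progenitors (10406434, chromosome 13), was at 9.30, 9.36 and 9.61 in E4bp4-/- and at 8.96, 9.26 and 9.41 in E4bp4+/+. Knockout replicate 1 was the highest of the 12 arrays and wild type replicate 2 the lowest. The means were 9.40 ± 0.11 and 9.23 ± 0.15, and the difference of 0.16 ± 0.074 was 1.12-fold (interval from 0.004 to 0.32). Its limma p was 0.0458 before and 0.329 after adjustment, and the exact permutation p of this single value was 0.039. The difference exceeded in size those of 84.0% of tested transcript clusters. Without knockout replicate 1 it was 0.12, with an interval from -0.028 to 0.27 and an adjusted p of 0.454, and without wild type replicate 2 it was 0.11.

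**Figure D2:**
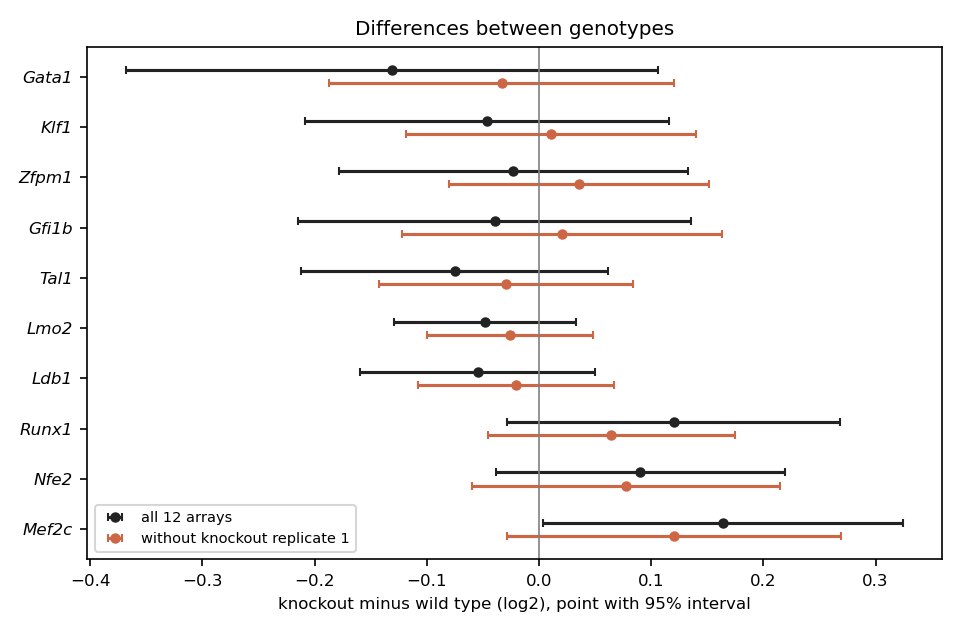
Difference in log2 level (E4bp4-/- minus E4bp4+/+) of each factor with its 95% interval, over all 12 arrays in black and without knockout replicate 1 in orange. The interval of Mef2c over 12 arrays, from 0.004 to 0.32, is the only one that leaves out 0, and it takes in 0 without that array.

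The 7 factors with lower means shared the arrays at their ends. Knockout replicate 1 was the lowest of the 12 arrays for all 7, and wild type replicate 1 was the lowest wild type array for the same 7. With knockout replicate 1 left out, 4 of the 10 were lower and 6 higher, 0 had an unadjusted p under 0.05 where 13.6% of all transcript clusters did, and 0 passed the adjusted threshold, as 0.0136% did. The neutrophil and monocyte marker levels of knockout replicate 1 move with its low levels of these 7 factors, and their part in them was not tested.

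The factors were then compared among mice of 1 genotype, by correlating each gene's deviations from its genotype mean over the 12 arrays. Over the 45 pairs, 20 passed a Benjamini-Hochberg adjusted p of 0.05 for Pearson's r and 9 for Spearman's rho, by permutation within genotype. The share of all gene pairs that would pass was not computed. For scale, the median absolute r of a factor with the 17806 other genes ran from 0.24 (Nfe2) to 0.38 (Ldb1). All 21 pairs among the 7 lower factors were positive, with r from 0.59 to 0.96 and a median of 0.87, and 16 of them passed for r. These 7 were grouped by a sign seen on the same arrays, and they share knockout replicate 1 as their lowest array. Their positive r over 12 arrays is therefore not independent of the grouping. All 21 were still positive over the other 11 arrays, with a median of 0.69. Without the 2 arrays farthest from the median of the first gene of each pair, 18 of the 21 were positive, with a lowest r of -0.14 and a median of 0.55. The tightest group, picked out after the values were seen, was Gata1, Klf1, Zfpm1, Gfi1b and Ldb1, whose 10 pairs had r from 0.89 to 0.96, and from 0.74 to 0.91 without knockout replicate 1.

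**Figure D3:**
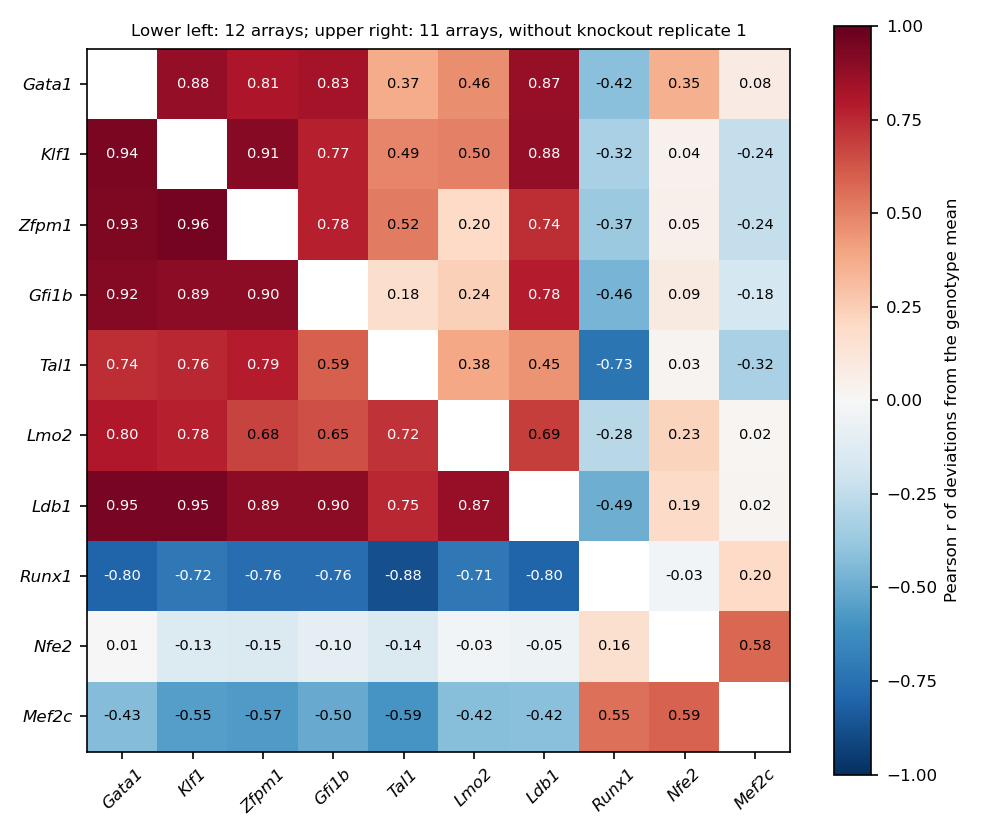
Pearson correlation of deviations from the genotype means for each pair of the 10 factors, over 12 arrays in the lower left and over 11 arrays, without knockout replicate 1, in the upper right. The block of 7 factors from Gata1 to Ldb1 is positive throughout over 12 and over 11 arrays, and the Runx1 row and column are negative against all 7.

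Gata1 and Klf1 had r = 0.94 and rho = 0.93 (permutation p = 0.00122 and 0.00141, adjusted p = 0.00823 and 0.0159), and r was 0.86 without the 2 arrays farthest from the median of Gata1, knockout replicates 1 and 5. Gata1 and Ldb1 had r = 0.95 and rho = 0.96 (permutation p = 0.00016 and 0.00022, adjusted 0.0036 and 0.00495), and 0.86 without the same 2 arrays. For Klf1 and its most similar factor, Zfpm1, r was 0.96 and rho 0.91 (permutation p = 0.00032 and 0.00305, adjusted 0.0048 and 0.0229), and r was 0.90 without the arrays numbered 1. These 3 pairs thus kept a high r without their end arrays.

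Tal1 and Lmo2 followed the group less closely. Gata1 and Tal1 had r = 0.74 and rho = 0.58, of which r passed and rho did not (permutation p = 0.0147 and 0.0462, adjusted 0.0367 and 0.11), and r was 0.47 without knockout replicates 1 and 5. Tal1 and Lmo2, which meet in 1 complex, had r = 0.72 (permutation p = 0.0344, adjusted 0.0596; rho = 0.49, p = 0.135, adjusted 0.233) and -0.11 without the arrays numbered 1, so that relation rested on those arrays.

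Runx1 ran the other way. Its r with the 7 factors lay between -0.88 and -0.71, 4 of the 7 passed for r and 1 for rho, and all 7 were negative without knockout replicate 1, from -0.73 to -0.28. Without the 2 arrays farthest from the median of the other factor, 2 of the 7 turned positive, with Klf1 (0.014) and Lmo2 (0.099), and r with Ldb1 was -0.15. The strongest was with Tal1, at r = -0.88 and rho = -0.87 (permutation p = 9e-05 and 0.00015, adjusted 0.0036 and 0.00495), and r was -0.58 without the arrays numbered 1. With Gata1 it was -0.80 for r and -0.55 for rho (permutation p = 0.022 and 0.123, adjusted 0.0494 and 0.23), and r was -0.57 without knockout replicates 1 and 5.

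**Figure D4:**
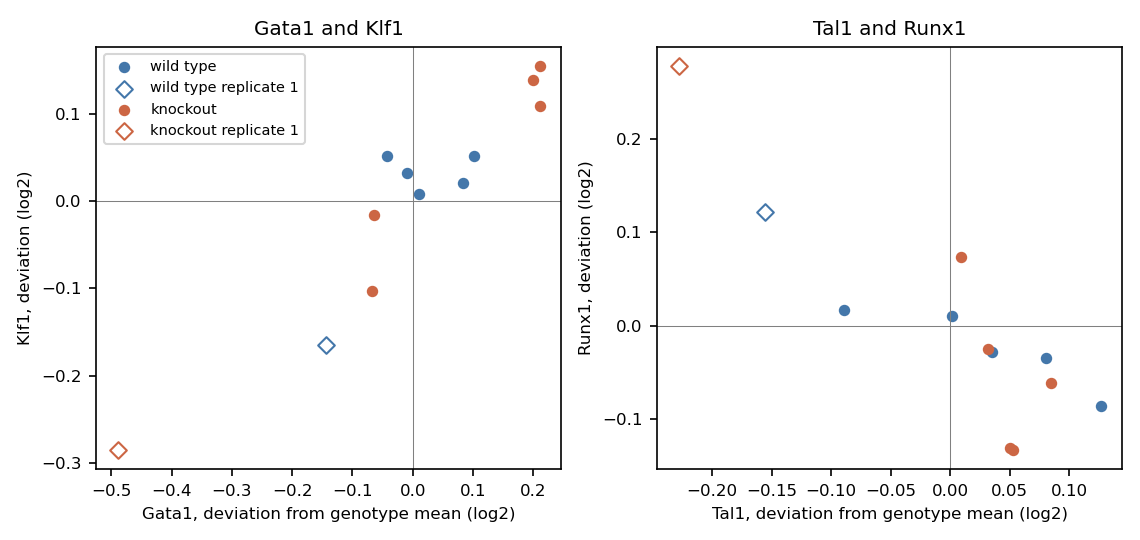
Deviations from the genotype mean (log2) on 12 arrays, Klf1 against Gata1 at left and Runx1 against Tal1 at right; blue is wild type, orange knockout, and diamonds are the arrays numbered 1. The Gata1 and Klf1 points run upward with r = 0.94, and the Tal1 and Runx1 points run downward with r = -0.88, the diamonds lying at the lower end of Gata1 and of Tal1.

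Nfe2 varied apart from the group: its r with the 7 lay between -0.15 and 0.0064, and 0 of the 7 passed. Mef2c had r from -0.59 to -0.42 with them, and 0 passed. Without knockout replicate 1 the r of Mef2c ran from -0.32 to 0.083, and 3 of the 7 were positive. Nfe2 and Mef2c had r = 0.59 and rho = 0.60 with each other (permutation p = 0.0677 and 0.0461, adjusted 0.0896 and 0.11), which did not pass.

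Set against the 17806 other genes tested, the deviations of Gata1 were most like those of Ociad1 (r = 0.98), Ttll12 (0.97) and Gp9 (0.97), the last a subunit of the platelet receptor for von Willebrand factor. Gene-wide likeness of this kind was common. An r of at least 0.8 was reached with Ldb1 by 4.31% of genes, with Klf1 by 3.56% and with Runx1 by 2.50%, but with Mef2c by 0.365% and with Nfe2 by 0.129%. Leaving out knockout replicate 1, the share was 1.70% for Ldb1, 1.06% for Klf1, 0.163% for Runx1, 0.410% for Mef2c and 0.320% for Nfe2, so the higher share of Runx1 than of Mef2c and Nfe2 rested on that array.

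The genes most like Klf1 were Tonsl, Tnk2 and Zfp346 (r of 0.96 each), and those most like Gfi1b were Selenbp1, Cox6b2 (both 0.97) and Gtf2f1 (0.96). Another factor of the 10 was the nearest gene only for Zfpm1, whose nearest was Klf1 (0.96), followed by Rbsn and Drosha. Over the 11 other arrays Klf1 was at rank 6 for Zfpm1. Uhrf1bp1 was nearest to Ldb1 at 0.98, followed by Igsf3 and Agap1. Lmo2 was followed by Zfyve21, Usp15 and Srbd1 at 0.95 to 0.96, and Tal1 by Cyren, Slc35g1 and Ell2, an elongation factor subunit, at 0.96 to 0.97. Runx1 was nearest to Emilin1 (0.95), Mettl9 (0.94) and Dock1 (0.93). Nfe2 was nearest to Ccpg1, Mn1 (both 0.92) and Tmem134 (0.90), and Mef2c to Cers4 (0.93), 4931428F04Rik (0.92) and Slc30a4 (0.91). These ranks moved without knockout replicate 1: of the nearest genes just named, Uhrf1bp1 was still first for Ldb1, but Ociad1 was at rank 5 and Gp9 at rank 26 for Gata1, Zfyve21 at rank 23 and Usp15 at rank 34 for Lmo2, and Emilin1, Mettl9 and Dock1 at ranks 9, 21 and 20 for Runx1.

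Proteins that work with the 10 factors, such as E-proteins, Maf proteins, Cbfb and the Kdm1a, Hdac and NuRD repressors, were read from a list of 28 symbols of which 27 were tested. Of these, 17 were higher and 10 lower, and 0 passed the adjusted threshold; 3 were higher and 1 lower at an unadjusted p under 0.05, where 9.47% and 5.72% of all genes were. The median difference was 0.0050, 0.0065 without knockout replicate 1, and -0.035 with each array centred on its median, a scaling that moved the median of all genes from 0.020 to -0.020. Cbfa2t3 (Eto2), a corepressor held in the Tal1 complex, was at 10.13 ± 0.17 in E4bp4-/- and 9.86 ± 0.10 in E4bp4+/+, a difference of 0.27 ± 0.076 (limma adjusted p = 0.195). The acetyltransferases Ep300 (0.11 ± 0.045) and Crebbp (0.10 ± 0.044) were also among the 3, and the deacetylase Hdac2 was the 1 lower gene (-0.13 ± 0.045; adjusted p = 0.238). Cbfa2t2, another Eto corepressor, differed by 0.097 ± 0.049 and Brd3, a bromodomain protein that binds Gata1, by 0.062 ± 0.034. Tcf3, the E-protein that pairs with Tal1, differed by 0.0012 ± 0.050. Ssbp3, which binds Ldb1, had its lowest value, 10.80, in knockout replicate 1 and at least 11.14 on the other 11 arrays.

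Paralogues of the 10 factors were compared next, since the progenitor factor Gata2 precedes Gata1 on shared sites. The list held 21 symbols, of which 18 were tested. Of these, 13 were higher and 5 lower, and the median was 0.053, or 0.0057 without knockout replicate 1. At an unadjusted p under 0.05, 3 were higher and 1 lower, where 9.47% and 5.72% of all genes were, and 0 passed after adjustment. Gata2 was at 10.12 ± 0.078 in E4bp4-/- and 9.95 ± 0.091 in E4bp4+/+, a difference of 0.17 ± 0.052 (limma adjusted p = 0.214). Gata1, at -0.13, had the opposite sign. Without knockout replicate 1 Gata2 was at 0.15 and Gata1 at only -0.033. Mef2d differed by 0.14 ± 0.043 and Runx3 by 0.13 ± 0.039, each in the direction of its paralogue among the 10. Other paralogues went against theirs. Mef2a differed by -0.031 ± 0.058 against 0.16 for Mef2c, and Gfi1 by 0.21 ± 0.23 against -0.040 for Gfi1b. Gata3, the lymphoid GATA factor, was the 1 lower gene at that bound, at 6.47 ± 0.27 against 7.11 ± 0.22 (-0.64 ± 0.13; adjusted p = 0.148). The cofactor Zfpm2 differed by 0.11 ± 0.063 and Nfe2l1 by 0.075 ± 0.049. Gfi1, the myeloid counterpart of Gfi1b, was at 9.06 in knockout replicate 1 and at most 8.40 on the other arrays.

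Other regulators of the 2 lineages were read from 25 symbols, of which 23 were tested. Of these, 18 were higher and 5 lower (58.8% and 41.2% of all genes), with a median of 0.050, or 0.020 without knockout replicate 1. At an unadjusted p under 0.05, 3 were higher and 2 lower (9.47% and 5.72% of all genes), and 0 passed after adjustment. Zbtb7a, a repressor of fetal globin genes, was at 9.12 to 9.40 in E4bp4-/- and 9.41 to 9.52 in E4bp4+/+, without overlap. Its difference was -0.23 ± 0.048 (limma adjusted p = 0.148; exact permutation p = 0.00216) and -0.20 without knockout replicate 1. E2f2, a cell cycle factor of late red cell precursors, was the other lower gene (-0.35 ± 0.12; adjusted p = 0.238). The higher ones were Zfp36l2 (0.19 ± 0.058), an RNA-binding protein of early erythroid progenitors, Meis1 (0.24 ± 0.10), a homeobox factor of stem cells and megakaryocytes, and Myb (0.11 ± 0.049), the progenitor factor. Mllt3, a stem cell and megakaryocyte regulator, differed by -0.19 ± 0.094. Spi1 (PU.1), a myeloid factor, was at 11.26 in knockout replicate 1 and at 9.75 to 10.75 elsewhere. Its difference was 0.17 ± 0.23, and -0.014 without that array. The same array had the lowest Gata1 and the highest neutrophil and monocyte marker means. A relation between Spi1 and Gata1 was not tested.

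Target genes were then read beside their factors. The erythroid list held 48 symbols, of which 34 were tested (heme enzymes, red cell membrane proteins, Epor and others). Of these, 31 were lower and 3 higher, and the median was -0.14. At an unadjusted p under 0.05, 8 were lower (5.72% of all genes), and 0 passed after adjustment. The list's mean level was 10.80 ± 0.14 in E4bp4-/- and 10.94 ± 0.087 in E4bp4+/+, and knockout replicate 1 was again the lowest at 10.58. Trim10, an erythroid ring-finger protein, had the lowest p, with a difference of -0.36 ± 0.11 (limma adjusted p = 0.214). The heme enzymes Fech (-0.22 ± 0.074), Uros (-0.23 ± 0.082) and Alad (-0.11 ± 0.039) and the membrane skeleton proteins Epb42 (-0.29 ± 0.10) and Dmtn (-0.22 ± 0.086) came next. Epor, the receptor upstream of these genes, differed by -0.066 ± 0.14. Without knockout replicate 1 the median was -0.072, and 5 genes were lower and 1 higher at an unadjusted p under 0.05, where 4.67% and 8.95% of all genes were. Globin genes were not analysed here.

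The megakaryocyte and platelet list held 29 symbols, of which 23 were tested. All 23 were higher in E4bp4-/- (58.8% of all genes), and the median was 0.36. At an unadjusted p under 0.05, 15 were higher (9.47% of all genes), and 0 passed after adjustment. Over the 11 arrays other than knockout replicate 1 the median was 0.43, with 20 genes at that bound (8.95% of all genes). Genotypes did not overlap for 3 (1.27% of all transcript clusters): Tbxas1, the thromboxane synthase (0.39 ± 0.086; adjusted p = 0.148), Ptprj, a receptor phosphatase of platelets (0.22 ± 0.050; adjusted p = 0.156), and Plek, a platelet kinase substrate (0.30 ± 0.077; adjusted p = 0.178). The fibrinogen receptor subunits Itga2b (0.41 ± 0.11; adjusted p = 0.184) and Itgb3 (0.62 ± 0.20; adjusted p = 0.219), the surface receptor Treml1 (0.55 ± 0.17; adjusted p = 0.214) and P2rx1, an ATP-gated channel (0.36 ± 0.11; adjusted p = 0.214), did not pass the adjusted threshold either. Gp9, one of the genes most like Gata1 between mice, differed by 0.24 ± 0.14 while Gata1 differed by -0.13. Without knockout replicate 1 Gp9 was at 0.36 and Gata1 at -0.033. The list's mean level ran from 9.02 to 9.78 in E4bp4-/- and from 8.80 to 9.33 in E4bp4+/+, and 5 knockouts, all but replicate 1, were above every wild type array. Of the lineage factors, Nfe2, Runx1 and Mef2c shared the positive sign of this list, with differences of 0.091, 0.12 and 0.16. That sign was also the one of 58.8% of all genes. Without knockout replicate 1 these differences were 0.077, 0.064 and 0.12. Knockout replicate 1 had the highest Runx1 and Mef2c of the 12 arrays but the lowest list mean of the knockouts, 9.02. The sign of the erythroid list was shared by Gata1, Tal1, Lmo2 and Ldb1 with and without knockout replicate 1. Without that array, those 4 differed by only -0.033 to -0.020, with SE of 0.034 to 0.070. Klf1, Zfpm1 and Gfi1b shared the erythroid sign over 12 arrays but were then at 0.011, 0.035 and 0.020. A link between the factors and either list was not tested.

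**Figure D5:**
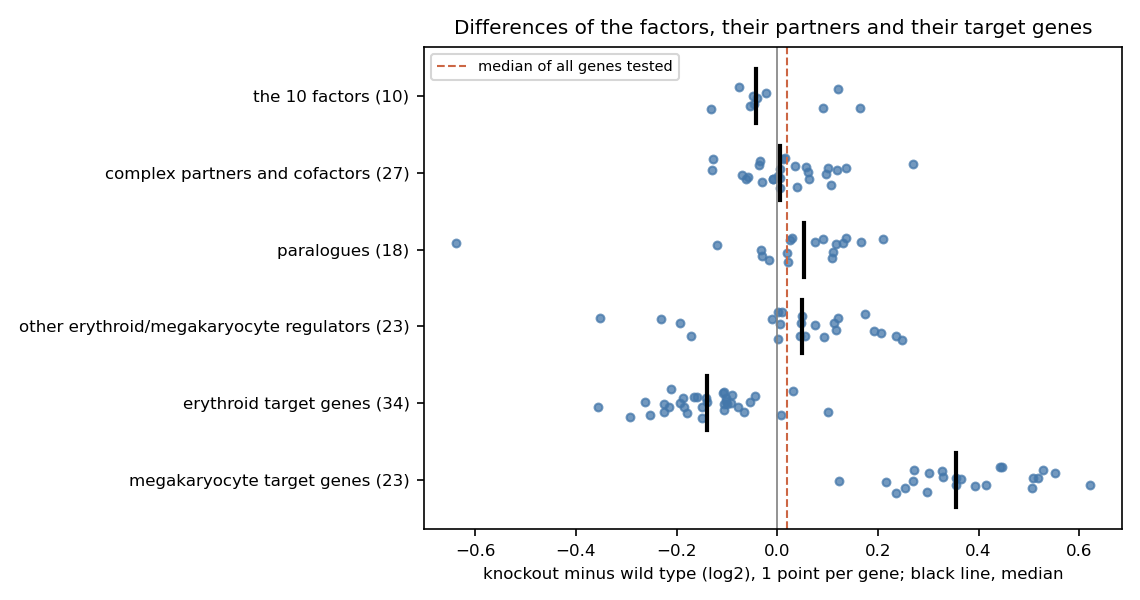
Difference in log2 level (E4bp4-/- minus E4bp4+/+), 1 point per gene, for the 10 factors and 5 gene lists, with the number of genes tested in brackets, the list median as a black line and the median of all genes, 0.020, dashed. Medians are -0.043 for the 10 factors, -0.14 for erythroid and 0.36 for megakaryocyte target genes.

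Markers of other cell types moved beside these values, and their part in the differences of the 10 factors was not tested. Of 17 stem cell markers, 16 were higher (58.8% of all genes), 7 at an unadjusted p under 0.05 (9.47% of all genes), with a median of 0.11 (0.072 without knockout replicate 1) and mean levels of 7.55 to 7.61 in E4bp4-/- against 7.37 to 7.51 in E4bp4+/+. Neutrophil markers had a median of 0.24 and monocyte and macrophage markers of 0.22, which were 0.019 and -0.012 without knockout replicate 1. B lineage markers had a median of 0.19 (10 of 13 higher), or 0.11 without that array. Basophil and mast cell markers had a median of 0.24 (13 of 13 higher), or 0.12 without it. At an unadjusted p under 0.05, 5 B lineage, 2 basophil and mast cell, 1 monocyte and macrophage and 0 neutrophil markers were higher, and 0 lower. Genotypes did not overlap for 2 B lineage markers and 1 stem cell marker, all higher, where 1.27% of all transcript clusters did not overlap. T, NK and innate lymphoid markers were higher for 6 and lower for 6 of 12, dendritic cell markers for 7 and 6 of 13, and stromal and endothelial markers for 4 and 11 of 15. Their medians were 0.0053, 0.0066 and -0.046, or -0.039, -0.0065 and -0.093 without knockout replicate 1. At an unadjusted p under 0.05, 2 were higher and 4 lower in the first list, 1 and 4 in the second and 0 and 2 in the third. Of all genes, 9.47% and 5.72% were, and 0 of these markers passed after adjustment. Lower ones included Icos (-0.37 ± 0.063) and H2-Eb1 (-0.43 ± 0.085), both without overlap of the genotypes, and H2-Aa (-1.34 ± 0.34, limma adjusted p = 0.173).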

How the data were processed

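Total RNA of 6 E4bp4-/- and 6 E4bp4+/+ mice was measured on 12 arrays. The deposited values are log2 levels that the authors obtained in GeneSpring GX version 11 by RMA16, per the series design text; the log2 scale follows from their range, 3.18 to 14.33. The probe annotation and genome build behind them are not given in the sources used here. Of 34760 transcript clusters, 29541 reached the 20th percentile on at least 1 array and went into the fit (limma 3.58.1, lmFit then eBayes, genotype as the only term, Benjamini-Hochberg; R 4.3.3), after the authors' stated filter and moderated test. The platform annotation named 1 gene for 21640, several for 1321 and none for 11799; each gene was read through its highest-mean transcript cluster, 1 for each of the 10 factors.

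For single values a two-sided exact permutation test was added, and correlations were tested by 100000 two-sided permutations within genotype (SciPy 1.17.1). The number of mice limits the precision. The 10 factors and 14 gene lists were chosen with earlier results of these data known. Named genes were the 10 factors, Nfil3, the 6 genes with the lowest p of each list and the 3 genes most like each factor. Some marker genes were also named. Tcf3, Ssbp3, Gfi1, Mef2a, Spi1, Epor, Itgb3 and Ms4a1 were added with their values seen. The limma step was tested on simulated data. Alternatives covered filter, scaling, variance trend, array weights, replicate number as a block and each array left out. Leaving out both arrays numbered 1, further settings for the lists and the p-values of the correlations were added after the data were seen.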

Additional observations from a re-analysis of the deposited data

Results flagged for a closer look

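Of 48 sets of 6 values examined (the 10 factors, Nfil3 and the list means in each genotype, by Dixon's 95% bound on the gap to the next array), 9 held an array set apart, and about 2.4 are expected by chance. Knockout replicate 1 was set apart for Tal1 at 9.30, Lmo2 at 11.85, Mef2c at 9.61 and the monocyte and macrophage marker mean at 8.73. Wild type replicate 1 was set apart for Klf1 at 11.26, Ldb1 at 12.05 and Nfil3 at 7.66. Wild type replicate 6 was set apart for the erythroid target mean at 11.11, and wild type replicate 2 for the T, NK and innate lymphoid marker mean at 6.17.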

How the results depend on the processing

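The number of the 10 factors past the adjusted threshold was 0 under all 20 alternatives, and 0 to 2 had an unadjusted p under 0.05. Over all transcript clusters the count was 0, but 5 with array weights and 0 to 4 with 1 array left out, of which 4 without knockout replicate 1 and 1 each without knockout replicate 2 and wild type replicate 2; the cause was not tested. Without knockout replicate 1 the differences of Klf1, Gfi1b and Zfpm1 turned to 0.011, 0.020 and 0.035 (lowest values with 1 array left out -0.079, -0.078 and -0.060); that of Zfpm1 was also 0.0070 with array weights, 0.0053 after quantile normalisation and 0.014 without both arrays numbered 1. The other 7 factors kept their sign under all 20, but with median centring Klf1 was at -0.086, Gfi1b at -0.080, Ldb1 at -0.095, Lmo2 at -0.088 and Nfe2 at 0.050. Mef2c had an adjusted p of 0.237 at the lowest.

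The erythroid target median ran from -0.187 to -0.072 and the megakaryocyte target median from 0.309 to 0.434 with 1 array left out. The median of the partners and cofactors turned to -0.035 with median centring and ran from -0.0018 (without wild type replicate 1) to 0.019 with 1 array left out, and was 0.031 after quantile normalisation. The T, NK and innate lymphoid median was -0.27 with a 50th percentile filter, -0.020 with array weights, -0.035 with median centring, -0.031 after quantile normalisation, -0.032 without both arrays numbered 1, and -0.039 to 0.027 with 1 array left out. The dendritic median was -0.034 with median centring, -0.022 after quantile normalisation and -0.020 to 0.041 with 1 array left out; the monocyte median ran from -0.012 (without knockout replicate 1) to 0.290.

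With the replicate number as a block, 0 transcript clusters passed (smallest adjusted p 0.173), Gata1 had an adjusted p of 0.375 and Runx1 of 0.266, and 2 factors had an unadjusted p under 0.05. Same-numbered arrays correlated at 0.46, 0.035, 0.068, -0.033, 0.19 and 0.17, with numbers 1, 5 and 6 best matched to themselves, so the numbers were not taken to pair the mice. Each factor has 1 transcript cluster, so no other could be tried.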
